A study of Mus musculus with 4 samples.

Results

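DNA damage repair genes were examined in cultured smooth muscle cells of the mouse aorta, which contract the vessel wall in life. The genes were the 53 of 25965 table entries whose symbols matched a fixed set of names: lettered Fanconi anaemia genes, Brca1 and Brca2, and numbered Rad, Xrcc, Ercc, Msh, Mlh and Parp genes, together with Atm, Atr, Chek1, Chek2, Nbn, Mre11a, Palb2, Bard1, Blm and Exo1. The rule reads names and no measured value, but it was written with earlier results of these data known. They were read as 9 functional groups: damage signalling, break end processing, homologous recombination, Fanconi anaemia, end joining, single-strand break repair, nucleotide excision repair, mismatch repair and the single gene Rad18. One name of the set, Rad9a, was present under its older symbol Rad9, which the rule did not cover, and its values are given separately.

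Cells of a living tissue repair several kinds of DNA lesion with separate protein machines. Kinases sense broken or stalled DNA and signal through checkpoint kinases, recombination and the Fanconi pathway repair breaks and crosslinks with the help of a sister chromatid, and end joining seals breaks without a template. Excision pathways cut out damaged or mispaired bases, and PARP enzymes mark single-strand breaks. Recombination and post-replication mismatch repair are tied to DNA replication, so their genes are known to be most active in dividing cells, while excision repair and end joining also serve resting cells such as those of the adult arterial wall.

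RNA was sequenced in 4 libraries, numbered 1 to 4, which formed 1 group. The cells were wild-type, on a C57Bl/6 background, came from the aortic media of male mice aged 8 to 14 weeks and had been passaged 3 to 5 times in medium with serum. The labels give no treatment, no passage number for single libraries, and no word on whether the libraries came from separate animals or cultures, so all spread and p-values describe these 4 libraries and may be technical in part. No comparison between conditions was possible, and the results are levels, contrasts of genes inside each library, and the spread of each gene over the libraries.

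The libraries held 40342561 to 56793195 reads on genes, and 0.0554% to 0.0906% of these fell on the repair genes (22341 to 51003 reads). Levels are deposited log2 scaled read counts unless a sentence says otherwise. A gene was called detected at a value of at least 0 in 4 of 4 libraries, which took 22 to 30 reads. Of 9 smooth muscle markers, 8 were detected, led by Acta2 (12.04, 10.76, 12.77 and 13.16 in libraries 1 to 4) and Tagln (11.49, 10.54, 11.61 and 12.27). In reads, Acta2 had 50145 to 268341 and Tagln 43063 to 144687. Further down the list, Myh11 had 4057, 1164, 5940 and 17719 reads and Cnn1 2579, 1191, 6422 and 9958. The exception was Myocd, a smooth muscle coactivator gene, with 12 to 53 reads. Detected among markers of other cells were 4 of 7 endothelial, 2 of 7 leukocyte and 5 of 6 fibroblast genes. The endothelial list was led by Tie1 (142 to 509 reads) and Pecam1 (81 to 326 reads), and Cdh5, Tek and Kdr were not detected (at most 206, 115 and 30 reads). Csf1r (187 to 581 reads) and Lyz2 (39 to 927 reads) led the leukocyte list, in which Cd68 (21 to 49 reads), C1qa (173, 201, 0 and 18 reads) and Ptprc (0 to 27 reads) missed the threshold in at least 1 library and Cd3e had no reads. Serpinf1 (10764, 9016, 639 and 533 reads) and Pdgfra (666 to 4201 reads) led the fibroblast list, in which Lum was not detected. In libraries 1 and 2 Serpinf1 had more reads than Myh11 and Cnn1. In bulk RNA, fewer cells of a type and less RNA per cell cannot be told apart.

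Of the 53 repair genes, 48 were detected (90.6%), against 47.4% of all genes in the table. None was without reads in all libraries, which held for 28.7% of all genes. The genes not detected were Bard1, Blm, Palb2 and Rad51c of homologous recombination and the meiotic mismatch repair homologue Msh4. The median level over all 53 repair genes, detected or not, lay at 3.66 ± 0.54 (SD, n = 4). All genes of the table, detected or not, had medians of 0.72, 0.47, -0.07 and 0.08 in libraries 1 to 4. Detected genes alone had a median of 5.11 ± 0.31, so the repair set lay between the medians of all genes and of detected genes. Division by exon length in kb is needed to compare genes with one another. On that scale the median was 1.02 ± 0.67 for all 53 repair genes and 2.94 ± 0.30 for detected genes alone.

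**Figure D1:**
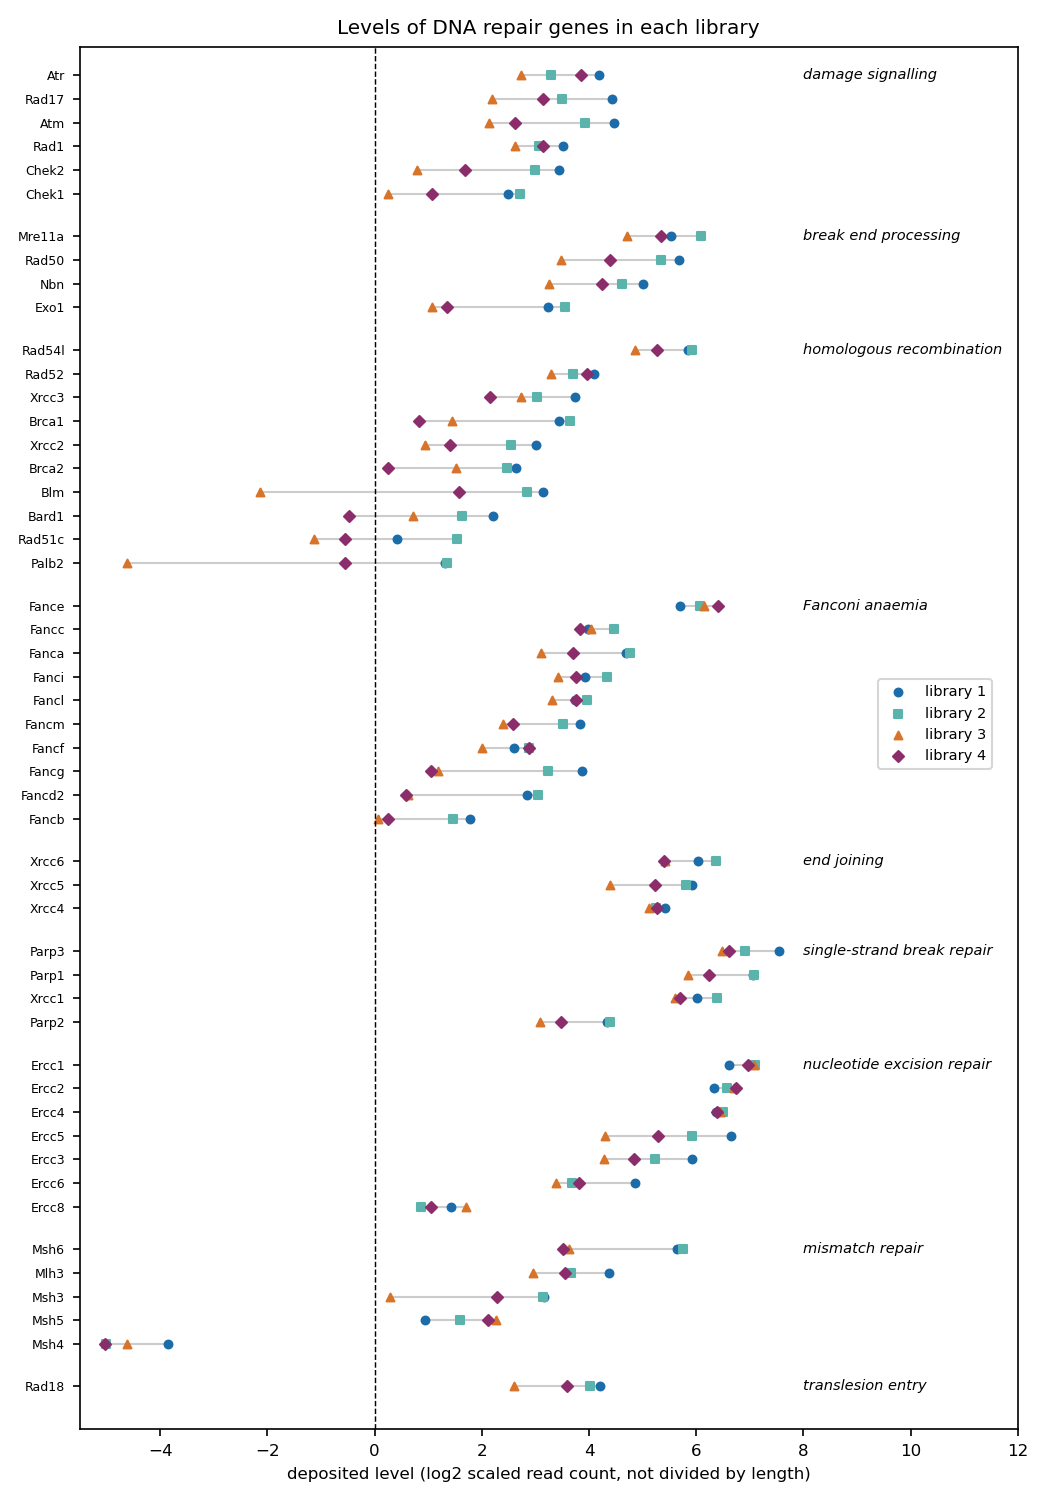
Deposited level (log2 scaled read count, not divided by length) of repair genes in libraries 1 to 4, grouped by function and sorted by mean within a group; the dashed line marks the detection threshold of 0. Nucleotide excision repair and single-strand break repair genes reach the right of the plot, Msh4 and library 3 of Palb2 lie at its left, and most markers of library 3 lie left of those of libraries 1 and 2.

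The groups fell into different ranges of level per kb of exon. Single-strand break repair had a median of 3.77 ± 0.47 per kb, end joining 3.59 ± 0.55 and nucleotide excision repair 3.49 ± 0.57. Break end processing followed at 2.51 ± 0.77, Rad18 at 1.07 ± 0.71 and the Fanconi anaemia genes at 1.03 ± 0.56. Mismatch repair lay at 0.59 ± 0.65, damage signalling at 0.0054 ± 0.84 and homologous recombination at -0.67 ± 1.07. These are log2 scaled read counts per kb, averaged over 4 libraries.

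Differences between named partners and between groups were taken within each library, per kb of exon, for 25 pairs. In 19 of them the sign was the same in 4 of 4 libraries. An exact permutation test, which flips the signs of the 4 differences in 16 arrangements, found 2 arrangements as extreme (two-sided). This is the smallest p the design allows, 0.164 after Benjamini-Hochberg adjustment over the 25 pairs, so no difference could pass 0.05 and sizes and sign counts are given in place of calls. Homologous recombination minus single-strand break repair was -4.44 ± 0.64 log2 units per kb (SD, n = 4; lower in 4 of 4 libraries). Against nucleotide excision repair the same group's difference was -4.16 ± 0.61, and against end joining it was -4.26 ± 0.59, each with 1 sign in 4 of 4 libraries. These group differences cover the named genes only. Among genes of the same pathways outside the naming rule, recombination had a median of 2.53 ± 0.33 per kb and end joining 0.95 ± 0.65. Base excision and single-strand repair had 2.55 ± 0.39 there and nucleotide excision repair 3.42 ± 0.36, so the order of groups differed. Fanconi anaemia minus nucleotide excision repair was -2.46 ± 0.22, between -2.67 and -2.21 in single libraries, and -1.91 when the longest transcript was used as the length.

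**Figure D2:**
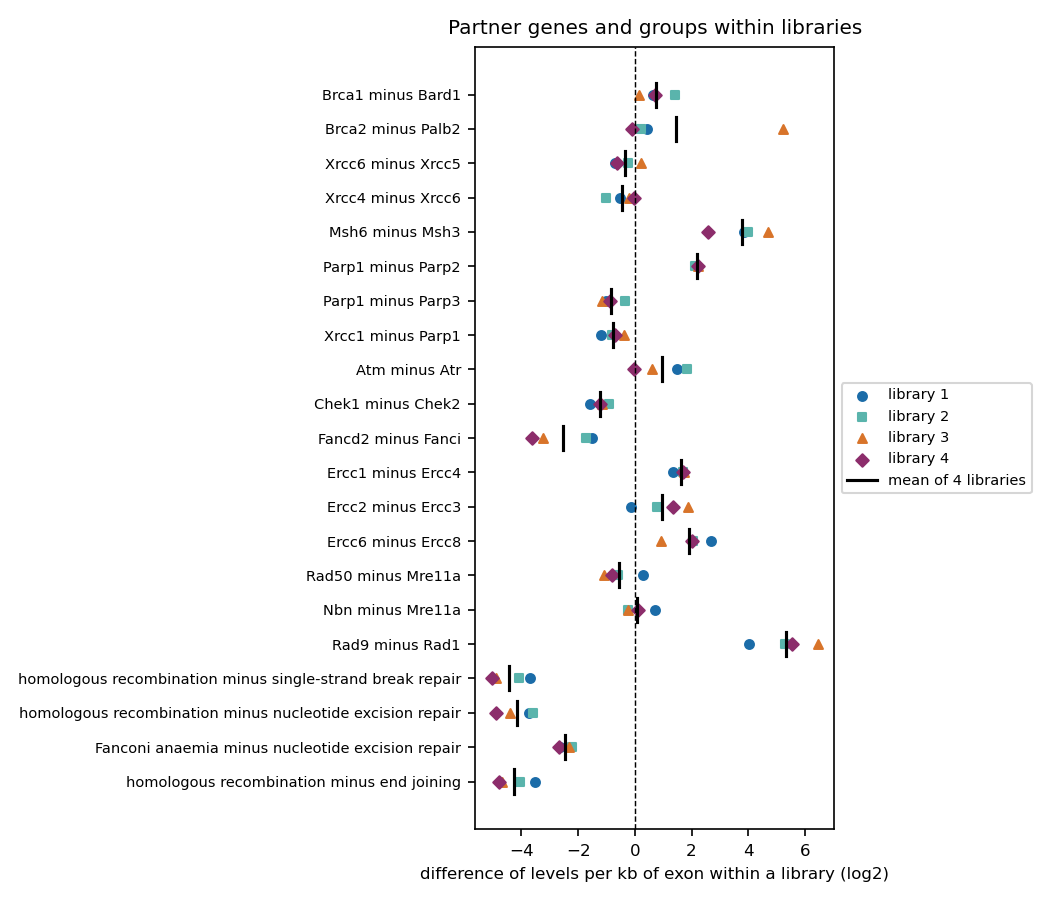
Differences of levels per kb of exon (log2) within each library for gene pairs and 4 pairs of groups, the first-named minus the second; symbols are libraries and black bars the mean of 4 libraries. Parp1 minus Parp2 lies between 2.13 and 2.22 in every library, and the 4 group differences lie between -5.05 and -2.21.

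The damage signalling genes encode the kinases and clamp proteins that detect broken or stalled DNA. Atm, the kinase gene mutated in ataxia telangiectasia that responds to double-strand breaks (chromosome 9, 53439149 to 53536740, GRCm38), had levels of 4.46, 3.92, 2.14 and 2.62 in libraries 1 to 4. Atr, whose kinase responds to single-stranded DNA at stalled forks (chromosome 9, 95857597 to 95951644), had 4.18, 3.29, 2.73 and 3.85. Both were lowest in library 3, and their ranges overlapped. Per kb, Atm minus Atr was 0.97 ± 0.85 and positive in 3 of 4 libraries (exact p = 0.25), but -0.50 with the longest transcript as the length, so the annotation decided its sign.

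Checkpoint kinases pass the signal of Atm and Atr to the cell cycle machinery. Chek1, the main effector of Atr, had 2.49, 2.71, 0.24 and 1.08, from 189 down to 26 reads. Chek2, an effector of Atm, had 3.45, 3.00, 0.79 and 1.68. In each gene libraries 1 and 2 lay above libraries 3 and 4. Chek1 minus Chek2 was -1.23 ± 0.28 per kb and negative in 4 of 4 libraries, so Chek2 was the more abundant transcript per length.

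Rad17, which loads the checkpoint clamp, had 4.43, 3.50, 2.20 and 3.14. Rad1, a clamp subunit, had 3.52, 3.07, 2.63 and 3.13 and was among the steadier genes of the group. Its partner Rad9, listed under the older symbol of Rad9a, had 5.89, 6.73, 7.44 and 7.03, and was lowest in library 1 and highest in library 3, the reverse of Rad1. The clamp holds equal numbers of each subunit, a property of the proteins that RNA levels do not measure. Rad9 minus Rad1 was 5.33 ± 1.01 per kb, between 4.01 and 6.46. It was 4.68 with the longest transcript as the length and 3.68 without division by length. The start of Rad1 lies 71 bases from that of Brix1, a ribosome biogenesis gene on the opposite strand, whose level was 6.78 ± 0.29.

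Break end processing begins with the complex of Mre11a, Rad50 and Nbn, which binds and trims DNA ends. Mre11a, the nuclease gene (chromosome 9, 14784654 to 14837123), had 5.53, 6.08, 4.71 and 5.35. Rad50, the structural ATPase gene of the complex (chromosome 11, 53649519 to 53707319), had 5.67, 5.34, 3.48 and 4.39. Nbn, whose product links the complex to Atm, had 5.01, 4.61, 3.26 and 4.24. The 3 subunits lay close together per kb, at 2.85 ± 0.57 for Mre11a, 2.30 ± 0.99 for Rad50 and 2.94 ± 0.75 for Nbn. Rad50 minus Mre11a was -0.55 ± 0.59 (exact p = 0.25) and Nbn minus Mre11a 0.09 ± 0.45 (exact p = 0.875), and neither had the same sign in 4 of 4 libraries. Exo1, an exonuclease gene that lengthens the single-stranded tails, was lower and more variable at 3.23, 3.56, 1.06 and 1.35.

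Homologous recombination genes spanned a wide range, with means from 5.48 down to -0.63. Rad54l, a remodelling ATPase gene, led at 5.85, 5.93, 4.87 and 5.26. Rad52, an annealing protein gene, had 4.10, 3.71, 3.29 and 3.97 and varied little. Rad54l overlaps Lrrc41, a gene at a level of 5.75 ± 0.37 (SD over 4 libraries), on the opposite strand over 2780 bases, and its deposited counts may hold reads of that neighbour.

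The breast cancer genes of the pathway and their partners were far lower. Brca1, a tumour suppressor gene acting in end resection (chromosome 11, 101488764 to 101551955), had 3.45, 3.64, 1.45 and 0.82, from 361 down to 52 reads. Brca2, a mediator of strand exchange (chromosome 5, 150522630 to 150569746), had 2.64, 2.47, 1.52 and 0.25. In both genes libraries 1 and 2 lay above libraries 3 and 4, by more than the difference between libraries 1 and 2. Bard1, the partner of Brca1 in a ubiquitin ligase, had 134, 89, 36 and 21 reads (2.20, 1.62, 0.71 and -0.48). Brca1 minus Bard1 was 0.73 ± 0.53 per kb and positive in 4 of 4 libraries.

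Palb2, the bridge between Brca1 and Brca2 (chromosome 7, 122107262 to 122132946), had 72, 74, 0 and 20 reads. The count of 0 in library 3 allows up to 3 reads there, counting error only. Brca2 minus Palb2 was 0.44, 0.22, 5.24 and -0.09 per kb in libraries 1 to 4, and the value of library 3 became 3.50 with Palb2 set at 3 reads. Without library 3 the mean was 0.19, so that library decided the size of the difference (1.45 ± 2.53 over all 4, exact p = 0.25). The start of Palb2 lies 56 bases from that of Dctn5 on the opposite strand, a dynactin subunit gene at a steady 5.87 ± 0.17.

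Rad51c, a recombination mediator gene, had 39, 84, 10 and 20 reads (0.42, 1.54, -1.14 and -0.56). Blm, the helicase gene of Bloom syndrome, had 256, 207, 5 and 88 reads. It was the most variable gene of the set after Palb2, with an SD of 2.42 against 2.80. The mediator genes Xrcc2 and Xrcc3 averaged 1.97 ± 0.96 and 2.91 ± 0.66.

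Fanconi anaemia genes encode a core complex that ubiquitinates the FANCD2 and FANCI pair at DNA crosslinks. Of 10 measured genes 10 were detected. Fance, a core gene (chromosome 17, 28313530 to 28326568), was highest at 5.70, 6.07, 6.15 and 6.41, and library 1 was its lowest. Fancc, its direct partner in the core, had 3.97, 4.47, 4.03 and 3.84, and overlaps 2010111I01Rik on the opposite strand (9.04 ± 0.62) over 21388 bases. Fanca had 4.69, 4.77, 3.10 and 3.70, and lies wholly within the span of the opposite-strand model Gm20388 (7.86 ± 0.50). Fancb, the X-linked core gene, was the lowest at 1.78, 1.47, 0.06 and 0.25, or 100, 80, 23 and 35 reads.

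The substrate pair was unequal. Fancd2 (chromosome 6, 113531682 to 113597017) had 2.85, 3.05, 0.63 and 0.58, with libraries 3 and 4 well below the others. Fanci (chromosome 7, 79391929 to 79450265) had 3.92, 4.33, 3.42 and 3.77, a narrower range. Fancd2 minus Fanci was -1.53 and -1.74 per kb in libraries 1 and 2 and -3.25 and -3.64 in libraries 3 and 4, with a mean of -2.54 ± 1.06. Fanci shares 1475 bases with the opposite-strand gene Polg, the mitochondrial polymerase gene at 7.04 ± 0.09. Fancg, another core gene, had 3.86, 3.23, 1.18 and 1.05 and the highest SD of the detected repair genes (1.43). The other members, Fancl, Fancm and Fancf, averaged between 2.59 and 3.69.

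End joining genes were higher per kb than the Fanconi anaemia genes, and of the 3 only Xrcc4 varied little. Xrcc6 and Xrcc5 encode Ku70 and Ku80, the ring that captures broken ends, and Xrcc4 encodes the scaffold of the ligase. Xrcc6 (chromosome 15, 81987835 to 82040085) had 6.03, 6.38, 5.41 and 5.40. Xrcc5 (chromosome 1, 72307421 to 72394952) had 5.93, 5.80, 4.39 and 5.22. Xrcc4 (chromosome 13, 89774027 to 90089608) had 5.42, 5.26, 5.12 and 5.27, an SD of 0.12. For the Ku pair the length used set the sign. Xrcc6 minus Xrcc5 was -0.34 ± 0.42 per kb (exact p = 0.25), 0.10 with the longest transcript and 0.47 without division by length. Xrcc6 overlaps Pppde2 (6.44 ± 0.25) on the opposite strand over 41340 bases, and its deposited counts may hold reads of that neighbour. Xrcc4 minus Xrcc6 was -0.45 ± 0.44, negative in 4 of 4 libraries.

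Single-strand break repair was the highest group as deposited (6.22 ± 0.45). Parp1, the main poly(ADP-ribose) polymerase gene (chromosome 1, 180568955 to 180601253), had 7.06, 7.07, 5.85 and 6.24. Parp2, its closest relative in function, had 4.34, 4.40, 3.08 and 3.48. Although both varied between libraries, their difference did not: Parp1 minus Parp2 was 2.18, 2.13, 2.22 and 2.21 per kb, a mean of 2.19 ± 0.04 (4.55-fold). Parp3, linked to double-strand break repair, had 7.55, 6.91, 6.49 and 6.62, above Parp1 as deposited except in library 2. Parp1 minus Parp3 was -0.85 ± 0.35 per kb, negative in 4 of 4 libraries, but -0.34 ± 0.35 without division by length. Parp3 overlaps Rrp9, an opposite-strand gene at 7.38 ± 0.25, over 987 bases, so its level is uncertain. Xrcc1, the scaffold gene of the pathway, had 6.02, 6.39, 5.60 and 5.70, and Xrcc1 minus Parp1 was -0.77 ± 0.33 per kb. With the longest transcript as the length that last difference was -0.02 and no longer had 1 sign in every library.

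Nucleotide excision repair removes bulky lesions such as those of ultraviolet light. Ercc1 (chromosome 7, 19344778 to 19356524) and Ercc4 (chromosome 16, 13109684 to 13150617) encode the partners of the nuclease that cuts on the upstream side of a lesion. Ercc1 had 6.62, 7.09, 7.09 and 6.96, and Ercc4 6.37, 6.50, 6.45 and 6.39, the narrowest range of the 53 genes. Ercc1 minus Ercc4 was 1.36, 1.71, 1.75 and 1.69 per kb, a mean of 1.63 ± 0.18, or 2.41 with the longest transcript.

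Ercc2 and Ercc3 encode the helicases of the transcription factor TFIIH. Ercc2 had 6.33, 6.57, 6.71 and 6.75, lowest in library 1, while Ercc3 had 5.92, 5.24, 4.28 and 4.84, highest in library 1. Their difference, Ercc2 minus Ercc3, therefore ran from -0.15 to 1.87 per kb over the libraries (0.96 ± 0.87, exact p = 0.25). Ercc2 overlaps 1258 bases of Klc3 on the opposite strand, a gene at 7.71 ± 0.55 that was also lowest in library 1. Ercc6 and Ercc8, the Cockayne syndrome genes that start repair at stalled transcription, were the lowest of the group. Ercc6 had 4.86, 3.69, 3.39 and 3.82 and Ercc8 1.42, 0.87, 1.71 and 1.05, and Ercc6 minus Ercc8 was 1.93 ± 0.73 per kb in favour of Ercc6 in 4 of 4 libraries. Ercc5, the nuclease gene for the downstream side, averaged 5.54 ± 0.99.

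Mismatch repair corrects errors of replication through one set of proteins that recognises mispairs and another that directs their removal. Msh6 (chromosome 17, 87975050 to 87990883), which recognises single mispairs, had 5.64, 5.76, 3.63 and 3.51. Libraries 3 and 4 lay far below libraries 1 and 2. Msh3, which recognises larger loops (chromosome 13, 92211881 to 92355003), had 3.16, 3.15, 0.30 and 2.28. Msh6 exceeded Msh3 by 3.79 ± 0.88 per kb in 4 of 4 libraries, or by 2.41 with the longest transcript. Mlh3, which acts after recognition, had 4.37, 3.66, 2.96 and 3.56, highest in library 1 and lowest in library 3. The meiotic homologues stood apart: Msh4 had 2, 0, 0 and 0 reads, whereas its partner Msh5 was detected with 56, 87, 106 and 128 reads (0.95, 1.59, 2.27 and 2.12). Of 9 meiosis genes, Msh5 was the detected one, followed by Stag3 with 27 to 79 reads and Sycp3 with 17 to 51, while Sycp1, Spo11 and Rad21l had no reads and Dmc1 and Hormad1 had 2 reads each in library 1. Rad18, the ubiquitin ligase gene that opens translesion synthesis, had 4.21, 4.01, 2.61 and 3.59.

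Ordered by level per kb, Ercc1 was highest at 5.30 ± 0.22, above 81.8% of all detected genes on this scale. Parp3 (5.01 ± 0.47), Ercc2 (4.53 ± 0.19), Fance (4.41 ± 0.29) and Parp1 (4.15 ± 0.61) came next. The lower end held Brca2 (-2.05 ± 1.10), Rad51c (-2.06 ± 1.17), Palb2 (-3.50 ± 2.80) and Msh4 (-7.41 ± 0.54), the last mostly at the floor given to genes without reads. Brca2 lay above 0.587% of detected genes. Of 52 steps between neighbours in this order, 45 were no larger than the smaller SD between libraries of the pair, a spread that includes what both genes share within a library.

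Another 114 genes of the same pathways outside the naming rule were measured, and 109 were detected (95.6%), with a median of 4.43 ± 0.45 as deposited and 2.40 ± 0.46 per kb. Ddb1, a damage recognition gene of nucleotide excision repair with other cellular roles, was the highest at 10.94, 10.97, 10.72 and 10.71, and Rad23b of the same pathway had 8.87, 8.80, 8.64 and 8.69. The direct reversal gene Mgmt had 8.19, 8.92, 9.12 and 8.78, lowest in library 1, and the ubiquitin-conjugating gene Ube2b, a partner of Rad18, 5.97, 5.51, 5.00 and 5.13. Base excision repair was led by the endonuclease gene Apex1 (7.61, 8.20, 7.99 and 7.79) and the ligase gene Lig1 (7.47, 8.83, 7.34 and 7.29).

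In other recombination genes, Swi5 had 8.67, 8.73, 8.46 and 8.59 and Babam1 7.75, 8.20, 8.46 and 8.10. In damage signalling, the ubiquitin ligase gene Rnf8 had 7.69, 7.56, 6.92 and 7.13 and Atrip, the partner of Atr, 6.09, 6.69, 6.73 and 6.64. Wdr48 (6.43, 6.07, 5.57 and 5.69) and Faap100 (4.76, 5.39, 5.71 and 5.80) led the other Fanconi genes, and Poll (5.16, 5.78, 5.05 and 5.27) and Nhej1 (4.37, 5.19, 4.85 and 4.44) the other end joining genes. Pold1 (6.18, 7.34, 5.51 and 5.78) and Pcna (5.17, 5.46, 4.16 and 4.33), which serve replication as well, led the other mismatch repair genes. Not detected were Recql4 (149, 255, 0 and 21 reads), Rad51b (38, 47, 0 and 1), the meiotic recombinase gene Dmc1, Mutyh (77, 66, 8 and 38) and Neil2 (52, 27, 0 and 0).

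Repair genes differed between libraries more often than the average gene. An SD above 0.5 over the 4 libraries was found for 32 of 48 detected repair genes (66.7%), against 40.5% of all detected genes, and an SD above 1 for 11 (22.9%), against 5.8%. Low genes vary more in any case, and 27 of 48 detected repair genes had a mean under 4, against 3922 of 12306 detected genes. Among genes with a mean under 4 the counts were 21 of 27 repair genes (77.8%) against 60% of detected genes, and among genes at 4 or above 11 of 21 (52.4%) against 31.3%. Among the 109 other detected repair genes, 56 had an SD above 0.5 (51.4%) and 13 an SD above 1.

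**Figure D3:**
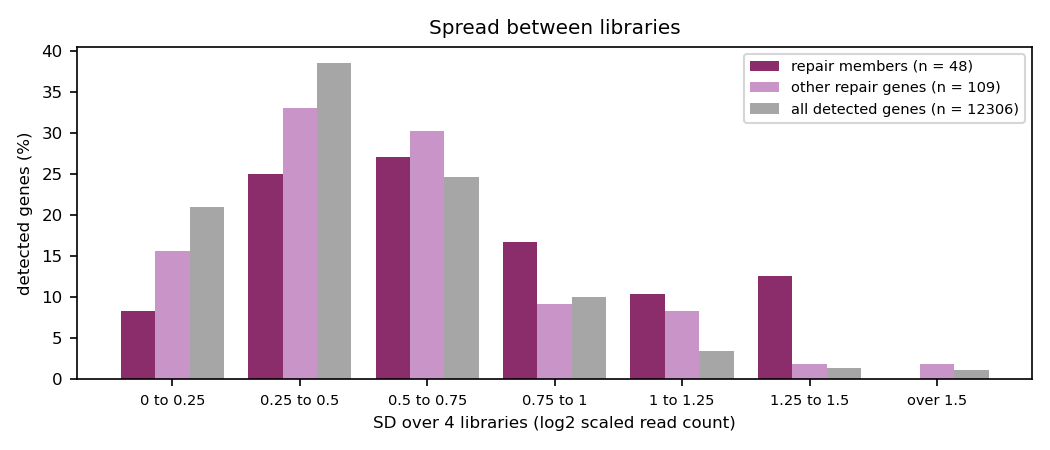
Share of detected genes (%) by the SD of their deposited log2 level over 4 libraries, for 48 repair genes of the set, 109 other repair genes and all 12306 detected genes. The SD class of 1.25 to 1.5 holds 12.5% of the set, against 1.31% of all detected genes.

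The 11 detected genes with an SD above 1 included Fancg, Brca1, Fancd2, Msh3, Exo1, Msh6, Chek2, Chek1, Brca2 and Atm, from checkpoint signalling, end resection, recombination, the Fanconi pathway and mismatch recognition. None of the 11 was a nucleotide excision repair, end joining or single-strand break repair gene, though Ercc5 was near the cut at 0.99. Outside the set, an SD above 1 was found for 1 of 8 detected end joining genes (Prkdc, 1.18). It was found for 2 of 19 base excision and single-strand repair genes (Tdp1, 1.12, and Ung, 1.03) and 0 of 19 nucleotide excision repair genes. At the other end Ercc4 (0.06), Xrcc4 (0.12) and Ercc2 (0.19) had an SD of at most 0.2. Scaling the libraries by median ratios of recovered reads shifted their values by -0.34, -0.11, 0.28 and 0.10 log2 units in libraries 1 to 4. Under it 22 repair genes had an SD above 0.5, against 30.7% of detected genes, and 7 had an SD above 1 (14.6%), against 4.16%. Xrcc4 stayed steady under that scaling at 0.16, while Ercc4 and Ercc2 varied by 0.29 and 0.45.

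The direction of the differences was shared by most groups. Among the 48 detected repair genes, 23 were highest in library 1 (53.6% of all detected genes were), 21 in library 2 (23.6%), 2 in library 3 (12%) and 2 in library 4 (10.8%). The lowest value fell in library 3 for 33 repair genes (52.9% of all detected genes), in library 4 for 9 (17.5%), in library 1 for 5 (16.3%) and in library 2 for 1 (13.2%). With median-ratio scaling, 15, 21, 6 and 6 repair genes were highest in libraries 1 to 4, against 31%, 21.6%, 30.3% and 17.2% of detected genes. On that scaling 11, 2, 24 and 11 were lowest in libraries 1 to 4, against 34.4%, 20.2%, 28.7% and 16.7%. The share highest in library 2 and the share lowest in library 3 were above those of detected genes under either scaling.

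Taking each detected gene's deviation from its own mean, the median deviation of the repair genes was 0.64, 0.44, -0.71 and -0.23 in libraries 1 to 4, against 0.32, 0.11, -0.28 and -0.10 for all detected genes. With median-ratio scaling, which brings all detected genes to within 0.0215 of 0, the repair genes were at 0.32, 0.35, -0.41 and -0.11. Damage signalling, at 0.67, 0.31, -0.84 and -0.24 on that scale, and break end processing, at 0.51, 0.55, -0.84 and -0.08, spread most. Homologous recombination was at 0.50, 0.47, -0.31 and -0.56 and mismatch repair at 0.52, 0.57, -0.55 and -0.05. Nucleotide excision repair was at -0.16, -0.03, 0.32 and -0.0019 on that scale but at 0.16, 0.07, 0.02 and -0.12 as deposited, so its order of libraries turned with the scaling. Its genes went both ways, with Ercc1, Ercc2 and Ercc4 lowest in library 1 as deposited and Ercc3, Ercc5 and Ercc6 highest in it and lowest in library 3.

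**Figure D4:**
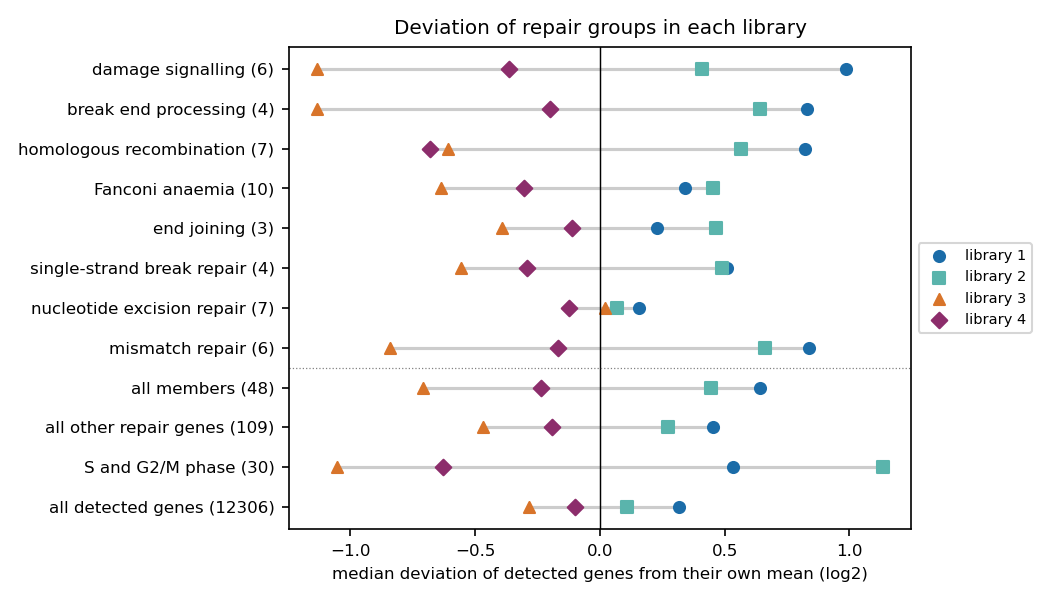
Median deviation of detected genes from their own mean over 4 libraries (log2, as deposited) for 8 groups of repair genes, the whole set, other repair genes, S and G2/M phase genes and all detected genes, with the number of detected genes in brackets; symbols are libraries. Library 3 lies lowest or near lowest in every repair group except nucleotide excision repair, whose 4 symbols lie between -0.12 and 0.16.

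Cell cycle genes differed between the libraries in the same direction. A list of 30 genes of S and of G2/M phase, all detected, had median deviations of 0.53, 1.13, -1.05 and -0.63 as deposited and a summed scaled read count of 2166, 3482, 884 and 1145 in libraries 1 to 4. Its highest genes, Top2a (8.05, 8.80, 7.08 and 7.35) and Rrm1 (7.69, 8.24, 5.95 and 6.64), were highest in library 2 and lowest in library 3. Its part in the differences of the repair genes was not tested, and Pcna is in both this list and the other mismatch repair genes. Of 15 p53 target genes 15 were detected, with median deviations of 0.35, 0.11, -0.25 and -0.16 as deposited and of 0.03, 0.01, 0.05 and -0.04 with median-ratio scaling. As deposited, 10 of them were highest in library 1 (53.6% of all detected genes were) and 9 were lowest in library 3 (52.9%). Both held for 8 of them, a joint share that was not taken for all detected genes. Among these 8 was Mdm2, the p53 ubiquitin ligase gene, at 7.82, 7.38, 6.38 and 6.46, a gene chosen after its values were seen. The highest genes differed from these: Bax had 9.91, 10.70, 11.15 and 10.88 and Phlda3 9.48, 9.75, 9.72 and 9.74, both lowest in library 1. Cdkn1a, the p21 gene, averaged 9.47 ± 0.12. Of the 15, 3 (Xpc, Ddb2 and Polk) are also counted among the other repair genes.

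Other measures differed between the libraries as well. The 6 fibroblast markers summed to 777, 611, 83.6 and 59.4, the 9 smooth muscle markers to 8061, 3697, 11643 and 16445, the 7 endothelial markers to 55.6, 35.6, 52.7 and 17.1 and the 7 leukocyte markers to 59.4, 44.5, 13.5 and 13.1 scaled reads in libraries 1 to 4. Mitochondrial genes took 0.0653%, 0.133%, 0.382% and 0.113% of the reads. Long genes deviated more than short ones: detected genes outside the set with over 6 kb of exon had medians of 0.55, 0.06, -0.41 and -0.15, and those under 2 kb 0.01, 0.16, -0.10 and -0.02. Relative to other genes of like exon length, the repair genes were at 0.24, 0.35, -0.39 and -0.13, and 24 of 48 (50%) had an SD above 0.5, against 28% of detected genes. The part of cell make-up, RNA quality and exon length in the differences was otherwise not tested.

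Promoters of the variable and the steady genes are shown because the genes that varied most shared their high and low libraries. RefSeq windows on GRCm38.p6, from 250 bases before to 50 after a start, matched 44 of the 53 genes. They were searched on both strands for letters of the E2F site (TTGGCGC as well as TTCCCGC, then also TTCGCGC and likewise TTGCCGC), through which E2F factors are known to drive S phase genes, of the CHR element (TTTGAA and otherwise TTCGAA) and of the CCAAT box (CCAAT). The reverse of the first E2F word can share bases with CCAAT, as it does in Ercc2. The windows of 3 genes with an SD above 1 (Fancg, Brca1 and Msh6) follow, with E2F letters of either strand in capitals, and then those of the 3 steadiest as deposited.
Fancg, chr4:43010252-43010551, minus strand: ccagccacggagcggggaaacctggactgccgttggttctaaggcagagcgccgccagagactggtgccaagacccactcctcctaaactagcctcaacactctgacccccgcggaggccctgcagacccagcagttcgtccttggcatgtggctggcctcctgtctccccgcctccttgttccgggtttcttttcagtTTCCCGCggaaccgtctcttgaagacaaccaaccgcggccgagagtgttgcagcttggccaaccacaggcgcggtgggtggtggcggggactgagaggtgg
Brca1, chr11:101551906-101552205, minus strand: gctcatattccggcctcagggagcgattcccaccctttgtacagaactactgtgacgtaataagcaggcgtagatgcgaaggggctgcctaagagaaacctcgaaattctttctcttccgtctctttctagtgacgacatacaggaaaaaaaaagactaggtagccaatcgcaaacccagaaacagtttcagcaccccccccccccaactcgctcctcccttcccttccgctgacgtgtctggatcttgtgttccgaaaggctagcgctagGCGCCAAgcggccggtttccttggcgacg
Msh6, chr17:87974800-87975099, plus strand: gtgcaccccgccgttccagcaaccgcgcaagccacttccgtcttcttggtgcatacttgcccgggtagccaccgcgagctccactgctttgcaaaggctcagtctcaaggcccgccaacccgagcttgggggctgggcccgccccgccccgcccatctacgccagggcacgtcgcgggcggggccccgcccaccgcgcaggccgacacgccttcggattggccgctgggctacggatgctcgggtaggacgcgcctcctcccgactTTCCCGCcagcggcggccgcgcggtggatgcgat
Ercc4, chr16:13109486-13109785, plus strand: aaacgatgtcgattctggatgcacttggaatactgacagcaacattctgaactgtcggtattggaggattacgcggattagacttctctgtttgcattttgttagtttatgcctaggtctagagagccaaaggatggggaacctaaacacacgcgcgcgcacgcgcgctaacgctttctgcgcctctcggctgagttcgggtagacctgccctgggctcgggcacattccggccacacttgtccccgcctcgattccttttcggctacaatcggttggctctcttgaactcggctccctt
Xrcc4, chr13:90089559-90089858, minus strand: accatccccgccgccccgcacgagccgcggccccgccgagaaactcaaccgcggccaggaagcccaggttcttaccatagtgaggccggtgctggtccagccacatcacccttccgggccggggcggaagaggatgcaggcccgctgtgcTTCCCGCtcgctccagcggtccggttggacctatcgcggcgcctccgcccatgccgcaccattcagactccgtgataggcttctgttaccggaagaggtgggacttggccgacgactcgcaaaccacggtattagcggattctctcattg
Ercc2, chr7:19381767-19382066, plus strand: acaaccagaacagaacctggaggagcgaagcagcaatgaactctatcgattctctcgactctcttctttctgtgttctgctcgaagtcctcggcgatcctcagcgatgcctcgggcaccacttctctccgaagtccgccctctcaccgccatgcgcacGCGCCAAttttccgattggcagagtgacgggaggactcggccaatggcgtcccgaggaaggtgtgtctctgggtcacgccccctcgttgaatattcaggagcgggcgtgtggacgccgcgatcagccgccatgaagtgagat

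The E2F letters stand 51 bases before the start in Fancg. In Brca1 and Msh6 they begin 21 and 16 bases after the start. Xrcc4 and Ercc2 hold them too, 100 and 92 bases before the start, and Ercc4 holds none. Over the set, 22 of 44 windows held E2F letters (50%), against 9.57% of all 32851 windows and 17.6% of the 9568 windows of detected genes. At a GC content of at least 50%, the shares were 55% of 40 repair windows and 18.8% of 8570 windows of detected genes.

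By spread, E2F letters were in 8 of 8 windows of genes with an SD above 1, in 4 of 16 with an SD of 0.5 to 1 and in 7 of 15 with an SD of at most 0.5. In the same classes CCAAT letters were in 4 of 8, 10 of 16 and 9 of 15 windows, and CHR letters in 0, 2 and 0. Of the 11 genes with an SD above 1, only 8 had a window. Shares among all detected genes were not taken by spread, and 17.6% is their E2F share at any spread. With median-ratio scaling, the first class held 4 windows, and 4 of them had E2F letters. CCAAT letters were in 25 of 44 repair windows (56.8%), against 37.4% of all windows, and CHR letters in 4 (9.09%), against 19.2%. Among windows of detected genes the shares were 38.7% for CCAAT and 13.4% for CHR. At a GC content of at least 50% they were 57.5% of repair windows against 38.3% for CCAAT, and 7.5% against 11.5% for CHR. These matches describe letters in a window. They are not evidence of binding, and the grouping by spread was made after the values were seen, so no test was run.

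Gene neighbourhoods bear on how firmly some values can be read. Of the 53 genes, 17 overlap another gene of the table, and the strand setting of the counting is not given in the sources used here. Besides those already named, Xrcc3 overlaps Klc1 over 4653 bases (8.43 ± 0.38) and Fancl overlaps Vrk2 over 555 bases (3.81 ± 0.36). A protein-coding start on the opposite strand lay within 1 kb of the start of 20 repair genes. Levels of these partners went both ways. Brca1 is 194 bases from Nbr1 (7.91 ± 0.68), Fancd2 is 30 bases from Tmem111 (6.54 ± 0.27) and Ercc8 is 108 bases from Ndufaf2 (4.96 ± 0.29), all higher. Atm (3.29 ± 1.09) is 307 bases from Npat at a like level (3.11 ± 0.43). Partners were lower for Rad51c (0.07 ± 1.17), 111 bases from Tex14 (-3.94 ± 1.04), and for Parp2 (3.82 ± 0.65), 109 bases from Ccnb1ip1 (-4.91 ± 0.20).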

How the data were processed

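Poly(A) RNA of 4 libraries was made with a stranded kit, per the labels' protocols, and the submitters' processing notes name Trim Galore, cutadapt, TopHat and the build GRCm38. The authors deposited log2 values of 25965 genes with their positions. Which tool counted the reads, with which annotation and strand setting, is not given in the sources used here. Nearly all values equal the log2 of whole reads multiplied by a library constant, and a gene without reads stands at 0.9 read. Within a tolerance of 0.05 read, 99.8% to 99.9% of values were whole, floor values included. What counted as a read is not stated, so a fragment may count more than once. Where a gene had 0 reads, up to 3 are possible by counting error alone.

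Members and gene lists were chosen with earlier results of these data known. Values in every library are given for the 3 highest and the lowest gene of each group, genes of a contrast, genes not detected and genes with an SD above 1, and for the 2 highest and the undetected genes of other lists (marker genes partly as ranges of reads). A few of these genes are not reported here, and remain in the counts, medians and adjusted p-values. Exon lengths (union of exons) came from GENCODE M21, matched for 94.6% of genes and 53 of 53 members. Start and end were those of the table for 58.6% of matched genes, so its annotation was another version. Promoter windows came from RefSeq. Contrasts were tested by flipping signs over libraries (exact, 16 arrangements). Alternatives were other thresholds, median-ratio scaling of recovered reads, list means, the longest transcript, no division by length and leaving out each library. Software was matplotlib 3.10.9, pandas 2.3.3, scipy 1.17.1, numpy 2.4.6 and Python 3.11.15, tested on simulated data.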

Additional observations from a re-analysis of the deposited data

Results flagged for a closer look

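Of 87 quantities checked for a library far from the other 3, a pair of differences stood out, and chance alone sets apart about 1 in 20 such groups of values. Brca2 minus Palb2 per kb was 5.24 in library 3, against -0.09 to 0.44 in the other libraries. Palb2 had 0 reads there, so this value rests on the floor and was 3.50 with Palb2 at 3 reads. Ercc1 minus Ercc4 per kb was 1.36 in library 1, against 1.69 to 1.75 in the others. In library 1 Ercc1 had its lowest level, 6.62, and Ercc4 was at 6.37.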

How the results depend on the processing

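No paired analysis was possible because the labels give 1 group. The number of detected repair genes was 49 and 38 at thresholds of -1 and 1 (50.1% and 43.9% of all genes), 52 with detection in any library (54.6% of all genes), and 48 to 49 without each library in turn (47.6% to 48.7% of all genes). The number with an SD above 0.5 was 25 to 34 without each library (27.2% to 46.0% of all detected genes), 22 with median-ratio scaling (45.8% against 30.7%), 24 relative to genes of like exon length (50% against 28%, added after seeing the data), and 11 for an SD above 1 (22.9% against 5.8%). Divided by exon length, list medians were 0.0054 (damage signalling), 2.51 (break end processing), -0.67 (homologous recombination), 1.03 (Fanconi anaemia), 3.59 (end joining), 3.77 (single-strand break repair), 3.49 (nucleotide excision repair), 0.59 (mismatch repair), 1.07 (Rad18) and 1.02 (the whole set), by construction of the scale. The mean of the mismatch repair list was 2.26, with Msh4 near the floor.

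Signs turned for Xrcc6 minus Xrcc5 (0.10 with the longest transcript, 0.47 without division by length), Atm minus Atr (-0.50 and -0.23) and Nbn minus Mre11a (-1.14 without division, -0.12 without library 1, -0.12 to 0.20 over the libraries left out); the length used set the first 2. The range of list deviations over libraries was, for end joining, 0.858 as deposited, 0.466 with median-ratio scaling and 0.442 relative to like length. For nucleotide excision repair it was 0.28 as deposited, 0.481 with median-ratio scaling, 0.609 with list means, 0.739 relative to like length and 0.0522 to 0.37 without each library. Without each library it was 1.01 to 1.87 for break end processing, 0.90 to 1.71 for mismatch repair and 0.613 to 1.6 for Rad18, lowest without library 3. The cause was not tested. Depth limits genes such as Fancb (23 to 100 reads) and Rad51c (10 to 84 reads).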
